A study of Mus musculus with 12 samples.

Results

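Voltage-gated calcium channels of cultured mouse dorsal root ganglion (DRG) neurons were followed through 10 genes: the pore-forming alpha1 subunit genes Cacna1a, Cacna1b, Cacna1c, Cacna1d, Cacna1e and Cacna1h, the alpha2delta subunit genes Cacna2d1, Cacna2d2 and Cacna2d3, and the beta subunit gene Cacnb3. They were taken by gene symbol from the deposited tables, and all 10 were present, out of 16617 genes named in both tables. None was absent. The RNA came from 4 groups with 3 libraries each: neurites of GAR+/- cultures (het neurites), soma of GAR+/- cultures (het soma), neurites of GAR+/+ cultures (WT neurites) and soma of GAR+/+ cultures (WT soma), 12 libraries in all. All cultures were on the C57B6 background, each was made from the ganglia of 1 adult mouse, and each was grown for 3 days on inserts with 1 µm pores, through which neurites extend while cell bodies stay on top. No group received a drug or another treatment. By its title the study asked how RNA is localized in axons deficient in nucleolin, an RNA-binding protein with a domain rich in glycine and arginine (GAR). The fractions are total RNA from a mixed culture, so fewer cells of a type and less RNA per cell cannot be told apart.

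A voltage-gated calcium channel opens when the membrane depolarizes and lets calcium into the cell. The alpha1 subunit forms the pore and sets the channel type: Cacna1a encodes the P/Q-type pore Cav2.1, Cacna1b the N-type pore Cav2.2, Cacna1e the R-type pore Cav2.3, Cacna1c and Cacna1d the L-type pores Cav1.2 and Cav1.3, and Cacna1h the T-type pore Cav3.2. The alpha2delta subunits, which sit outside the membrane, and the beta subunits, which bind inside, raise the number of channels at the surface. In sensory neurons N-type channels drive transmitter release at the central terminals, T-type channels set excitability, and alpha2delta-1 is the target of gabapentin.

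The tables count RNA per annotated transcript, and which bases of these genes were counted decides what the values mean. Of the annotated transcripts that have at least 1 exonic base shared with no other transcript on the same strand, 48.1% were listed (34132 of 71022), against 6.36% (1285 of 20204) of those without any such base. A listed Cacna1c transcript without own bases had 0 to 22 counts per library, so counts need not lie in own bases alone. How reads were assigned to transcripts is not known. The 10 genes had 24 listed transcripts in soma and 20 in neurites. All 20 were in both tables and 4 were in the soma table alone (2 of Cacna1a, 1 of Cacna1h and 1 of Cacna2d2). Cacna1e on chromosome 1 and Cacna2d3 on chromosome 14 have a single annotated transcript, with 12697 and 3695 bases of its own. The transcripts listed in both compartments had 190 bases of their own for Cacna1b, 174 for Cacna1c, 171 for Cacna1d, 182 for Cacna2d1, 673 for Cacnb3 and 21 for Cacna2d2. For Cacna1h no protein-coding transcript was listed, and its value rests on 1 retained-intron transcript with 1031 own bases (chr17:25431839-25432869, minus strand, GRCm38). Cacna1a had 3065 own bases in both tables, of which 196 belong to its protein-coding transcript and lie in untranslated sequence.

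Some of these own bases are known alternative exons. The following sequences show those of listed Cacna1a and Cacna1b transcripts, followed by the stretch behind most own bases of Cacna2d2 (GENCODE M21, GRCm38). They are not all that was counted for the first pair of genes. A counted exon here is an own exon of a listed transcript, and how many of the transcript's reads lay in that exon is not known. The protein-coding Cacna1a transcript had 113 to 399 counts per library, against 9 to 48 for the transcript of the printed Cacna1a exon. A Cacna1b transcript with 30 own bases in untranslated sequence, not shown, had 4 to 52 counts per library. The counted Cacna1b exon of 97 bases (chr2:24626823-24626919, minus strand) comes first of a mutually exclusive pair in the coding sequence and corresponds to exon 37a, described in nociceptors, and its partner (chr2:24625238-24625334) corresponds to exon 37b. Capitals mark the bases that differ within a pair.
Cacna1b counted exon: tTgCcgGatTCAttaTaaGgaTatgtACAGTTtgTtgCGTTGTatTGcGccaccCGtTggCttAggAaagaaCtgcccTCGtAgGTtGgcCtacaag
Cacna1b partner exon: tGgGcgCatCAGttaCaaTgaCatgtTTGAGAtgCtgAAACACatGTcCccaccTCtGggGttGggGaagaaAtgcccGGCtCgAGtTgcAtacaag
The 2 Cacna1b exons were 58.8% identical. Cacna1a carries the same kind of pair on chromosome 8, and there the counted exon (chr8:84615574-84615670, plus strand) is the second of the pair and its partner (chr8:84614695-84614791) the first, with 61.9% identity.
Cacna1a counted exon: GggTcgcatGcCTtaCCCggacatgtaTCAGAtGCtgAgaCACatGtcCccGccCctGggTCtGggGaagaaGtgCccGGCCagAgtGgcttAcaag
Cacna1a partner exon: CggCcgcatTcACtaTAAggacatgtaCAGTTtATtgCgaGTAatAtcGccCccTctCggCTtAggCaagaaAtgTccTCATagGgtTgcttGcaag
The remaining sequences are shown in capitals with 12 bases of the neighbouring transcript on each side in lower case. The Cacna1b cassette exon of 63 bases (chr2:24682976-24683038, minus strand) corresponds to exon 18a, which lengthens the cytoplasmic loop that binds proteins of the synaptic release machinery. The Cacna2d2 stretch of 18 bases (chr9:107522105-107522122, plus strand) opens coding exon 23 of its transcript.
Cacna1b cassette exon: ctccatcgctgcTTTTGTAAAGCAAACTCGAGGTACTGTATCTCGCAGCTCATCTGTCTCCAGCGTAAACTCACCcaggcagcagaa
Cacna2d2 stretch: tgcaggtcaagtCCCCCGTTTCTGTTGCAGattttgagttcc
The Cacna2d2 stretch ends in AG and lies directly before the exon start at position 107522123 that 5 other annotated transcripts use. Unspliced RNA of those transcripts holds the same 18 bases, and its part in the count was not tested. The same limit holds for Cacna1c, whose 174 own bases (chr6:118630225-118630398, minus strand) directly follow an exon end that 3 other annotated transcripts use.

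**Figure D1:**
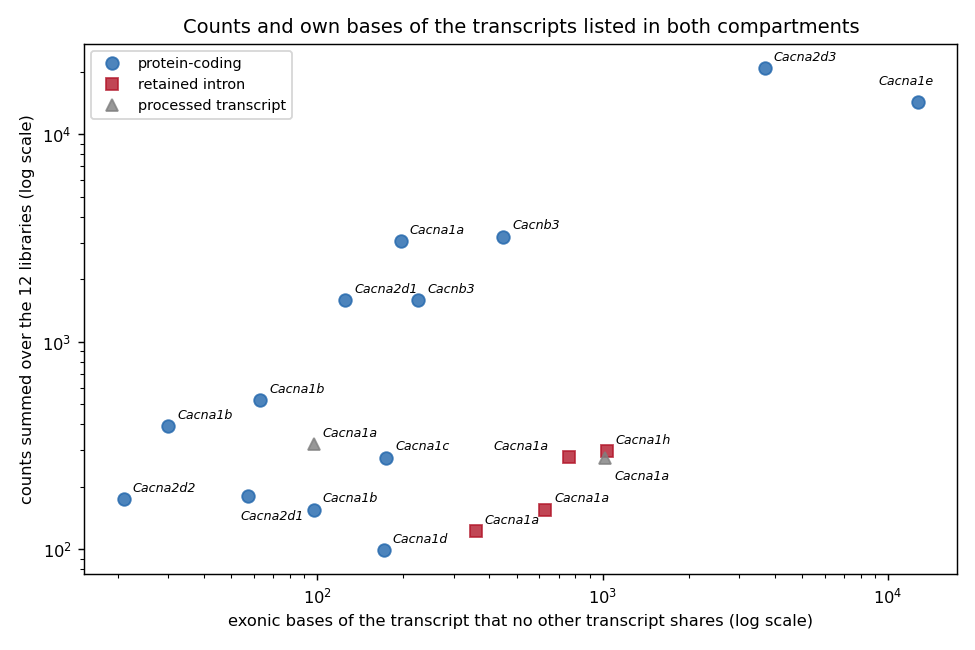
Counts summed over the 12 libraries (vertical axis, log scale) against the number of exonic bases that only this transcript has (horizontal axis, in bases, log scale), 1 point per transcript listed in both compartments and labelled by gene, blue circles for protein-coding, red squares for retained-intron and grey triangles for processed transcripts. The single transcripts of Cacna2d3 and Cacna1e, with 3695 and 12697 own bases, have the highest counts; the Cacna1c transcript with 0 own bases is not drawn.

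In neurites set against soma, 9 of the 10 genes had a negative log2 fold change averaged over both genotypes, and 1 of them, Cacna2d2, fell past the threshold of an adjusted p of 0.05 (edgeR quasi-likelihood test, Benjamini-Hochberg over 15990 genes). Over all genes tested, 4.87% fell in neurites by that rule (778 genes), and 50.4% had a negative value. This fit had no replicate block, and with a block more members and more of all genes passed, as given below. The members' median was -0.24 on the log2 scale, against 0.00 over all genes. The 16 pan-neuronal genes had a median of -0.30, with 16 of 16 negative and 6 called lower (Rbfox3, Prph, Thy1, Uchl1, Nefl and Isl1), and the 12 nociceptor genes one of -0.44, with 12 of 12 negative. Satellite glia genes were on the other side, with a median of 0.49 and 10 of 10 positive, 4 of them called higher, and proliferation genes had a median of 0.44. Macrophage genes had a median of -0.38, with 6 of 6 tested negative and 1 called lower (Cd68). The large-diameter sensory neuron list had a median of -0.34. Medians of the Schwann, fibroblast and endothelium, pericyte and muscle lists were 0.33, 0.12 and 0.42. The part of cell composition in the channel values was not tested.

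Cacna2d2 encodes alpha2delta-2. Its counts were 9, 23 and 7 in het neurites, against 25, 28 and 16 in het soma, and 6, 1 and 4 in WT neurites, against 15, 18 and 22 in WT soma. As CPM (counts per unit of TMM-adjusted library size, on the usual CPM scale) it averaged 0.55 ± 0.303 in het neurites and 0.858 ± 0.199 in het soma, and 0.214 ± 0.183 in WT neurites and 0.751 ± 0.207 in WT soma (SD, n = 3 each). The WT neurite libraries all lay below the WT soma libraries, while the het libraries of both compartments overlapped. Averaged over both genotypes, neurites held a 2.35-fold lower level (log2 fold change -1.23 ± 0.38 SE, adjusted p = 0.0478 by edgeR). With 1 library left out at a time, the call was lost in 10 of the 12 cases and stayed without WT neurites replicate 1 and without het neurites replicate 2. Over all 12 cases the log2 fold change lay between -1.60 and -1.06 and the adjusted p of edgeR between 0.0225 and 0.118. DESeq2 gave the gene no adjusted p. At 1 to 28 counts for a transcript with 21 own bases, an observed count of 0 would allow up to 3 counts. That is 0.0925 to 0.2 CPM depending on the library, which covers counting error only.

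The N-type and R-type pore genes came next. Cacna1b had 2.44, 4.72 and 2.93 CPM in het neurites, against 3.8, 4.85 and 4.63 CPM in het soma. In WT it had 2.73, 2.76 and 3.19 CPM in neurites, against 4.42, 4.26 and 4.01 CPM in soma. The WT compartments did not overlap and those of het did. The log2 fold change of -0.46 ± 0.16 (SE) missed the threshold (adjusted p = 0.0736 by edgeR), passed without het neurites replicate 2 (lowest adjusted p 0.0114) and was at 0.0509 by DESeq2. With the replicate number as a block its adjusted p was 0.0377 by edgeR. The numbers were taken as pairing the libraries in WT and not in het. Cacna1e had 59.3, 58 and 36.5 CPM in het neurites, against 64.1, 60.5 and 73.9 CPM in het soma, and 24.9, 36.3 and 42.9 CPM in WT neurites, against 38.1, 52.2 and 54.5 CPM in WT soma. Its het compartments did not overlap, with all neurites below all soma, and its WT compartments did. Its log2 fold change was -0.42 ± 0.15 (adjusted p = 0.0954 by edgeR), and DESeq2 called it lower (adjusted p = 0.0382), the 1 member that DESeq2 called. In WT each neurite library of Cacna1e lay below the soma library of the same number. The adjusted p of edgeR was 0.103 with the number as a block and 0.008 with genotype and number together as a block.

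The other pore genes had smaller differences relative to their error. Cacna1a had 15.6, 18.6 and 10.3 CPM in het neurites, against 17.2, 15.7 and 16.2 CPM in het soma, and 10.6, 16.3 and 13.3 CPM in WT neurites, against 15.5, 17.1 and 12.3 CPM in WT soma. Both pairs of groups overlapped, and its log2 fold change was -0.15 ± 0.14 (adjusted p = 0.529 by edgeR). Cacna1c ranged from 0.74 to 1.76 CPM over the neurite libraries and from 1.11 to 1.6 CPM over the soma libraries, with a log2 fold change of -0.24 ± 0.21. Its WT neurite libraries lay below all WT soma libraries, and the het libraries overlapped. Cacna1d, with 1 to 20 counts per library and no adjusted p by DESeq2, had -0.61 ± 0.50. Cacna1h, measured by its retained-intron transcript alone, had 0.04 ± 0.24.

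Among the other auxiliary subunits, the compartments overlapped in both genotypes. Cacna2d3, the member with the most counts, had 69.1, 89.4 and 62.3 CPM in het neurites, against 79.7, 91.5 and 79.8 CPM in het soma, and 59.9, 75.7 and 54.3 CPM in WT neurites, against 73.9, 83.5 and 66.5 CPM in WT soma. That is a log2 fold change of -0.21 ± 0.10 (adjusted p = 0.196 by edgeR). In WT each neurite library lay below the soma library of the same number, and with the replicate number as a block the adjusted p was 0.0211 by edgeR. Cacna2d1 had -0.14 ± 0.15 (adjusted p = 0.601 by edgeR), with 5.71 ± 0.773 CPM in het neurites and 6.75 ± 1.31 CPM in het soma, and 6.3 ± 1.15 CPM in WT neurites and 6.53 ± 1.8 CPM in WT soma (SD, n = 3 each). Cacnb3 had -0.24 ± 0.12 (adjusted p = 0.21 by edgeR), and passed without WT neurites replicate 2 (adjusted p = 0.0476).

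**Figure D2:**
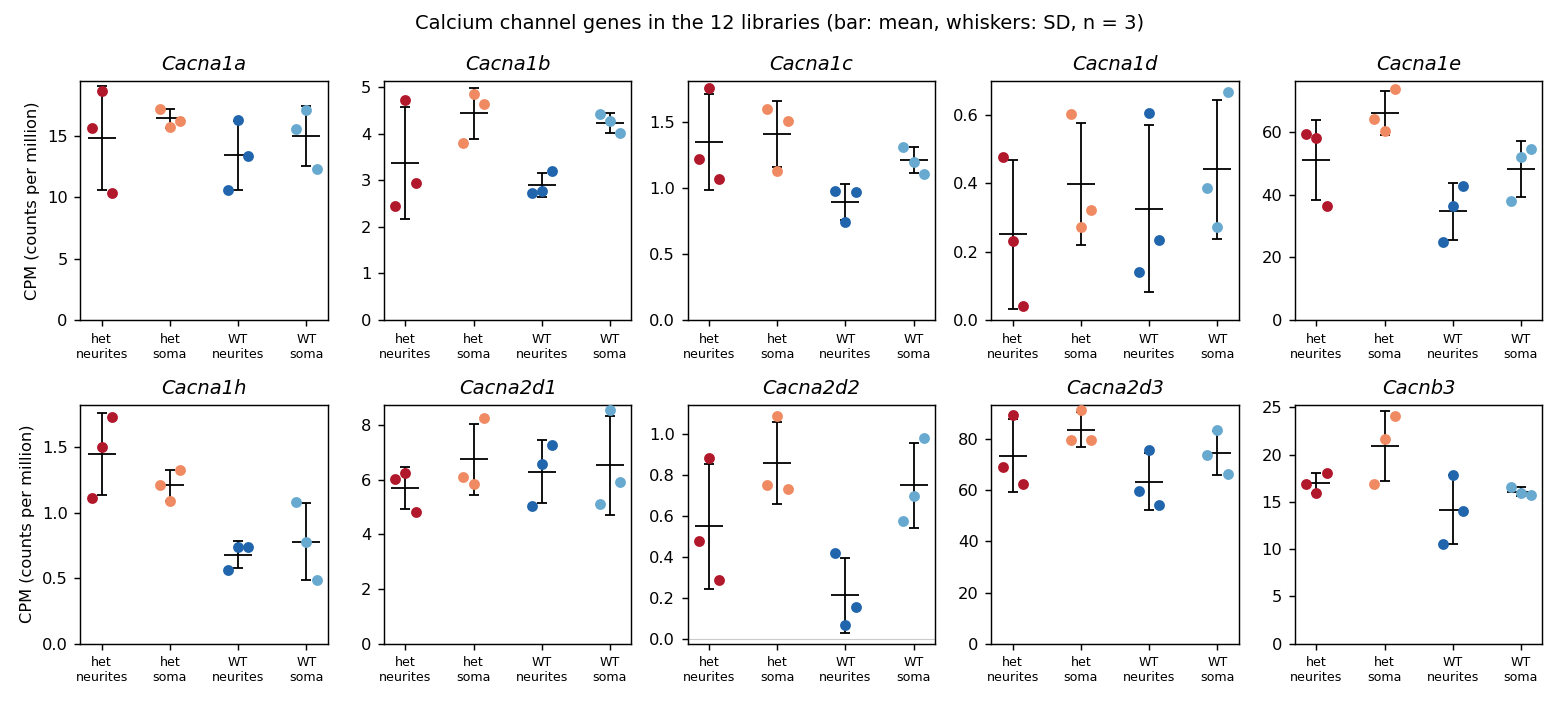
Level of each of the 10 genes in CPM (vertical axis, linear, from 0, a scale per gene) in het neurites, het soma, WT neurites and WT soma (from left to right), 1 point per library, with a bar for the mean and whiskers for the SD of 3 libraries. For Cacna2d2 the WT neurite libraries lie below all WT soma libraries, and for Cacna1h both het groups lie above the WT groups of the same compartment.

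Within a genotype no member passed in edgeR. In het, 0 of 10 were called in neurites against soma, and 0.638% of all genes were. There 0 members had an unadjusted p under 0.05, against 14.4% of all genes. In WT, 0 of 10 were called, and 3.10% of all genes were, 495 genes, or 1510 with the replicate number as a block. There 2 members had an unadjusted p under 0.05 (Cacna1b and Cacna2d2), against 19.6% of all genes. DESeq2 called 0 members in both. It gave no adjusted p for Cacna1c, Cacna1d, Cacna1h and Cacna2d2 in either genotype, nor for Cacna1b in het. Non-overlap was seen for 1 member in het (Cacna1e), where 22.3% of all genes had it, and for 3 in WT (Cacna1b, Cacna1c and Cacna2d2), also at 22.3% of all genes. The difference of the neurite-to-soma change between het and WT (interaction) was called for 0 members (edgeR and DESeq2), with 0 at an unadjusted p under 0.05, and for 0.00% of all genes (202 at an unadjusted p under 0.05). For Cacna2d2 the neurite-to-soma log2 fold change was -0.62 ± 0.48 in het and -1.84 ± 0.59 in WT, and the interaction of 1.22 ± 0.77 had an adjusted p of 1 by edgeR.

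**Figure D3:**
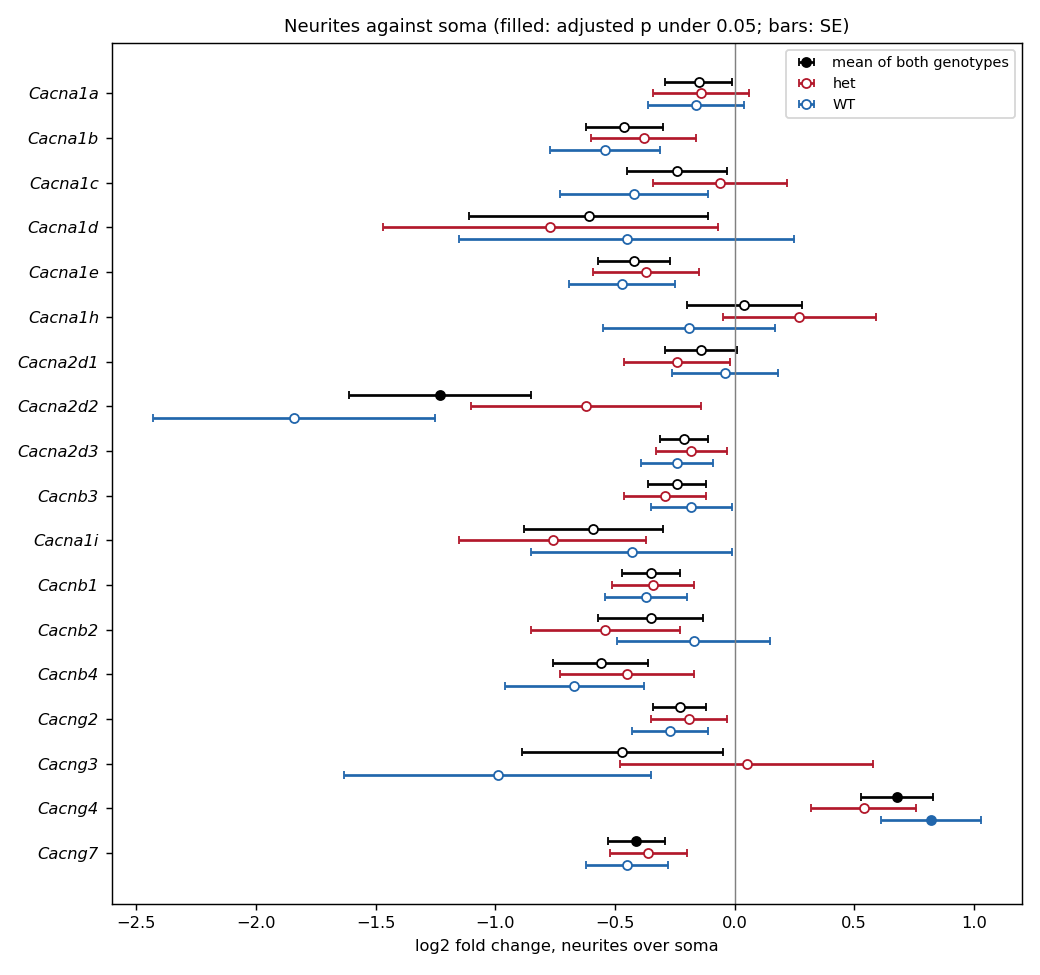
Log2 fold change of neurites over soma (horizontal axis) with its SE (bars) for the 10 genes and 8 other subunit genes, black for the mean of both genotypes, red for het and blue for WT, with filled points where the adjusted p of edgeR is under 0.05. Cacna2d2 at -1.23 and Cacng7 at -0.41 fall in the mean, and Cacng4 rises, at 0.68 in the mean and 0.82 in WT.

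Before het was compared with WT, nucleolin itself was examined. Ncl had 426, 382 and 332 CPM in het neurites, against 463, 415 and 322 CPM in WT neurites. In soma it had 251, 258 and 290 CPM in het, against 218, 237 and 239 CPM in WT soma. The groups overlapped in neurites and did not in soma, where het was higher. Neither difference passed (log2 fold change -0.07 ± 0.13, adjusted p = 0.794 in neurites, and 0.20 ± 0.13, adjusted p = 0.697 in soma, by edgeR). The labels do not say which bases the allele changes, so the level of Ncl does not check them.

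In het set against WT, most channel genes had positive log2 fold changes and none passed in edgeR or DESeq2. DESeq2 gave no adjusted p for Cacna1d and Cacna2d2 in either compartment. In neurites 8 of 10 were positive, with a median of 0.24 against -0.01 over all genes. Of the 10, 0 were called by edgeR, where 3.27% of all genes were. An unadjusted p under 0.05 was found for 3 members (Cacna1e, Cacna1h and Cacna2d2) and for 20.9% of all genes. In soma 9 of 10 were positive, with a median of 0.18 against 0.01 over all genes. Of the 10, 0 were called by edgeR, where 0.00% of all genes were. An unadjusted p under 0.05 was found for 1 member (Cacnb3) and for 9.16% of all genes. Over all genes in soma edgeR called 0, with 1464 at an unadjusted p under 0.05. With the replicate block edgeR called 520, and DESeq2 called 318. Fitted on the 6 libraries of 1 compartment alone, edgeR called 388 genes in soma and 0 in neurites. Pan-neuronal genes were positive in 15 of 16 cases in neurites (median 0.28) and in 16 of 16 in soma (median 0.18). Satellite glia genes had medians of -0.76 in neurites and -0.66 in soma, and proliferation genes -1.14 and -1.12. Macrophage genes had medians of 0.3 in neurites and 0.34 in soma. In the same order Schwann genes had -0.64 and -0.18, fibroblast genes -0.7 and -0.56, and endothelium, pericyte and muscle genes -0.97 and -0.35. Summed over the 10 proliferation genes, het neurites had 1640 to 2140 CPM, against 3010 to 3870 CPM in WT neurites. Het soma had 802 to 985 CPM, against 1310 to 1520 CPM in WT soma. The part of these cells in the channel values was not tested.

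Cacna1h had the smallest p of the members in neurites. It had 1.11, 1.5 and 1.73 CPM in het neurites, against 0.56, 0.74 and 0.739 CPM in WT neurites. The soma libraries had 1.21, 1.09 and 1.33 CPM in het soma, against 1.08, 0.774 and 0.49 CPM in WT soma. Het lay above WT without overlap in both compartments, on 8 to 42 counts of a retained-intron transcript. The log2 fold change was 1.08 ± 0.35 in neurites (adjusted p = 0.0971 by edgeR) and 0.61 ± 0.33 in soma (adjusted p = 0.624).

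Cacna1e, for which the whole transcript is counted, averaged 51.2 ± 12.8 CPM in het neurites and 34.7 ± 9.09 CPM in WT neurites (SD, n = 3 each). Its soma means were 66.2 ± 6.95 CPM in het and 48.3 ± 8.86 CPM in WT (SD, n = 3 each). In soma the het libraries all lay above the WT libraries, and in neurites they overlapped. The log2 fold change was 0.56 ± 0.22 in neurites (adjusted p = 0.173 by edgeR) and 0.45 ± 0.22 in soma (adjusted p = 0.564). In the authors' deposited table for soma the same transcript had a log2 fold change of 0.475 with a false discovery rate of 0.0015, where 4.24% of all listed transcripts had a false discovery rate under 0.05. In the authors' deposited table for neurites it had 0.582 and a false discovery rate of 0.171, where 3.02% of transcripts passed. It was the 1 member transcript under 0.05 in the authors' deposited tables.

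Cacnb3, a beta subunit, had 16.9, 21.7 and 24.1 CPM in het soma, against 16.6, 16 and 15.7 CPM in WT soma, without overlap (log2 fold change 0.37 ± 0.17, adjusted p = 0.516 by edgeR). In neurites it had 16.9, 16 and 18.1 CPM in het, against 10.6, 17.9 and 14 CPM in WT, with overlap. Cacna1c had 1.22, 1.76 and 1.07 CPM in het neurites, against 0.979, 0.74 and 0.973 CPM in WT neurites, without overlap (log2 fold change 0.59 ± 0.31, adjusted p = 0.285 by edgeR). Non-overlap was thus seen for 2 members in neurites, where 18.3% of all genes had it, and for 3 members in soma, where 20.7% had it. Cacna2d2 was at 1.42 ± 0.61 in neurites and 0.20 ± 0.47 in soma. The log2 fold changes of Cacna1a, Cacna1b, Cacna2d1 and Cacna2d3 lay between -0.15 and 0.22 in neurites and between 0.04 and 0.16 in soma, and Cacna1d had -0.41 ± 0.77 in neurites and -0.09 ± 0.64 in soma.

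**Figure D4:**
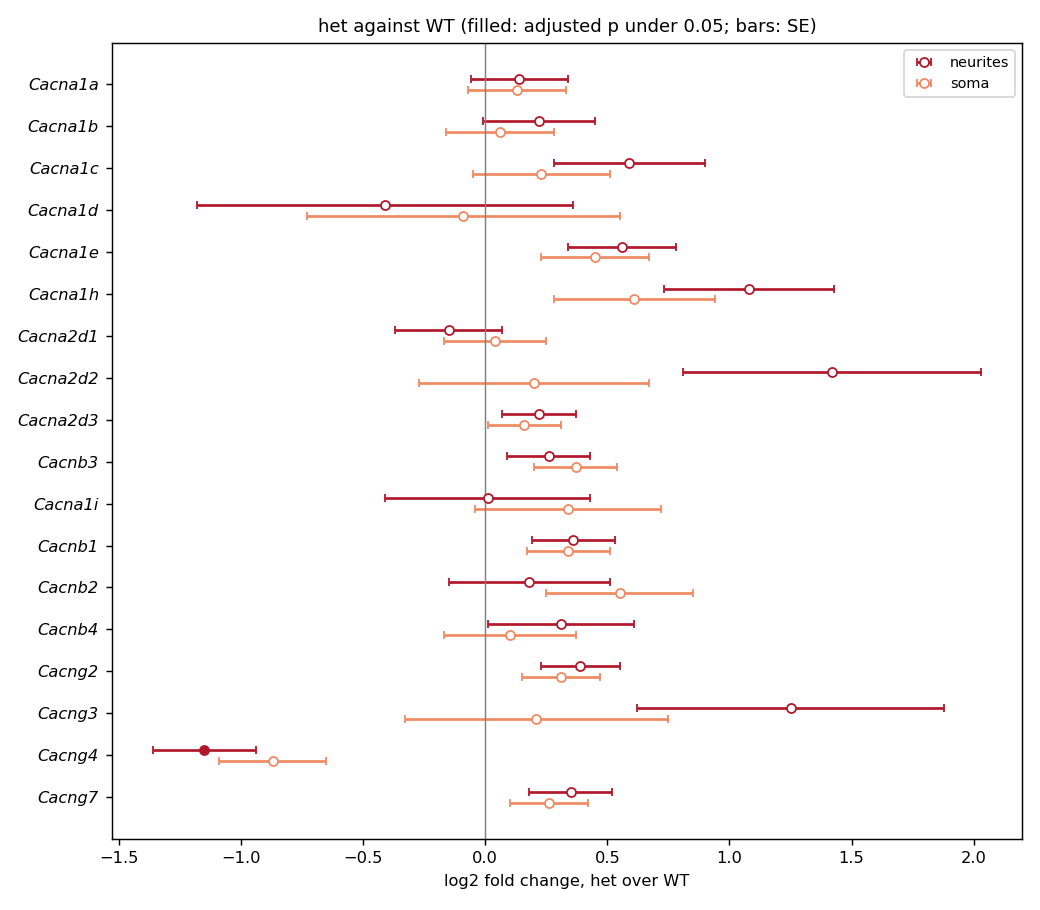
Log2 fold change of het over WT (horizontal axis) with its SE (bars) for the 10 genes and 8 other subunit genes, dark red for neurites and orange for soma, with filled points where the adjusted p of edgeR is under 0.05. Only Cacng4 in neurites, at -1.15, is filled.

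Single transcripts gave no call. Of the 20 transcripts in both tables, 19 passed the filter on low counts, all but a Cacna1c transcript without own bases (0 to 22 counts per library). In edgeR 0 of 19 were called in neurites against soma averaged over genotypes (4 with an unadjusted p under 0.05; 7.14% of all transcripts called), 0 in het (1; 0.512%), 0 in WT (3; 1.58%), 0 for het against WT in neurites (4; 1.60%), 0 in soma (1; 0.0653%) and 0 for the interaction (0; 0.00%). These percentages are by adjusted p, so the unadjusted counts do not compare with them. Over all genes, rather than transcripts, an unadjusted p under 0.05 was found for 27.7%, 14.4%, 19.6%, 20.9%, 9.16% and 1.26% in the same order. The transcript with the nociceptor-type Cacna1b exon had 9, 22 and 7 counts in het neurites, against 20, 18 and 14 in het soma, and 9, 3 and 9 in WT neurites, against 15, 24 and 5 in WT soma. The groups overlapped (log2 fold change of neurites over soma -0.41 ± 0.38, adjusted p = 0.6 by edgeR). The transcript with the Cacna1b cassette exon had 20, 59 and 24 counts in het neurites, against 54, 63 and 49 in het soma, and 26, 15 and 38 in WT neurites, against 68, 62 and 45 in WT soma (-0.61 ± 0.23, adjusted p = 0.116 by edgeR). In CPM all WT neurite libraries lay below all WT soma libraries for this transcript, and the het groups overlapped. The transcript with the second exon of the Cacna1a pair had 9, 28 and 25 counts in het neurites, against 42, 37 and 48 in het soma, and 17, 11 and 18 in WT neurites, against 29, 31 and 25 in WT soma (-0.63 ± 0.26, adjusted p = 0.15 by edgeR). The other transcripts of these genes were mostly nearer 0. The protein-coding Cacna1a transcript had -0.13 ± 0.15, the other 4 tested Cacna1a transcripts had 0.37, 0.13, 0.03 and -0.41, and the Cacna1b transcript with the 30 own bases had -0.24 ± 0.28 (adjusted p = 0.688 by edgeR). The 4 transcripts of the soma table alone had 0 to 13 counts per library and did not pass the filter, so no test was made.

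The order of levels between genes depended on the length that was divided by. Per kilobase (kb) of annotated transcript, summed over transcripts and averaged over the 12 libraries, the order was Cacna2d3 with 20 CPM per kb, Cacna1b with 7.7, Cacnb3 with 6.42, Cacna1a with 5.43, Cacna1e with 3.94, Cacna2d1 with 0.926, Cacna1h with 0.62, Cacna1c with 0.178, Cacna2d2 with 0.107 and Cacna1d with 0.0438. Cacna1b, Cacnb3 and Cacna1a overlapped over the libraries (4.07 to 10.8, 4.01 to 9.03 and 4.24 to 7.34). This order divides each transcript by its own length, and the Cacna1b transcripts with the printed exons are annotated with only 308 and 332 bases. Divided by the longest listed transcript of each gene, Cacna1b had 0.386 CPM per kb and ranked 7, Cacna1a had 1.88, and the 3 highest were Cacna2d3 with 20, Cacnb3 with 6.24 and Cacna1e with 3.94. Per kb of own bases the order was Cacna2d1 with 34.7 CPM per own kb, Cacna2d2 with 28.2, Cacnb3 with 25.4, Cacna2d3 with 20, Cacna1b with 19.6, Cacna1c with 5.53, Cacna1a with 4.86, Cacna1e with 3.94, Cacna1d with 2.07 and Cacna1h with 1. How reads at the edge of a short stretch were counted is not known, and their part in the order by own bases was not tested. Cacna2d3 and Cacna1e, whose length is the same on all 3 scales, differed by a level of 20 against 3.94 CPM per kb, with no overlap (14.6 to 24.7 and 1.96 to 5.8).

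Shares within a subunit class were compared between compartments by an exact permutation of the compartment label within genotype (400 arrangements, 9 shares, 2-sided). On annotated length, the share of Cacna2d2 in the alpha2delta signal was 0.454% ± 0.168 in het neurites and 0.647% ± 0.0995 in het soma, and 0.226% ± 0.199 in WT neurites and 0.651% ± 0.242 in WT soma (SD, n = 3 each). The difference of -0.308 percentage points had an exact permutation p of 0.015, adjusted p = 0.135. Per kb of own bases its share was 32.1% ± 8.97 in het neurites and 40.4% ± 6.72 in het soma. It was 16.2% ± 13.5 in WT neurites and 38.9% ± 8.16 in WT soma. That difference of -15.5 points had an exact permutation p of 0.03, adjusted p = 0.135. The size of the Cacna2d2 share thus depended on the length that was divided by. On annotated length, Cacna1h, measured by its retained-intron transcript alone, took 5.62% ± 2.31 of the alpha1 signal in het neurites and 3.36% ± 0.329 in het soma. In WT it took 2.9% ± 0.537 in neurites and 2.39% ± 0.741 in soma. The Cacna1a part of that signal also holds retained-intron and processed transcripts. The Cacna1h difference of 1.38 points had an exact permutation p of 0.035, adjusted p = 0.158. The other 7 shares had exact permutation p-values from 0.13 to 0.975, so no share differed past the threshold.

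For the 3 members with the highest level per kb when each transcript is divided by its own length, the named genes with the most similar pattern over the 12 libraries (Pearson r of log2 CPM, n = 12, libraries that share a compartment and a genotype in groups of 3) were Pcolce2 (0.962), Dock3 (0.958) and Hecw1 (0.955) for Cacna2d3. They were Pigz (0.945), Ric3 (0.935) and Cfap57 (0.933) for Cacna1b, and Cdk16 (0.947), Vsig10l (0.942) and Rps6kl1 (0.935) for Cacnb3.

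Of 16 other subunit genes of the family, 8 were in both tables and all 8 were tested. In neurites against soma, averaged over genotypes, 1 was called higher (Cacng4) and 1 lower (Cacng7), with 7 of 8 negative and a median of -0.38; over all genes 7.33% were called higher and 4.87% lower. Cacng2, Cacng3, Cacng4 and Cacng7 are named as gamma subunits of the channel and are best known as auxiliary subunits of AMPA-type glutamate receptors. Cacng4 had 11, 6.37 and 8.04 CPM in het neurites, against 5.55, 4.85 and 7.01 CPM in het soma, and 19.6, 19.9 and 16.7 CPM in WT neurites, against 9.54, 8.6 and 13.6 CPM in WT soma. Its level was higher in neurites by 0.68 ± 0.15 on the log2 scale (adjusted p = 0.00977 by edgeR), without overlap in WT and with overlap in het. In het it fell in neurites (-1.15 ± 0.21 against WT, adjusted p = 0.0212 by edgeR), and in soma it had -0.87 ± 0.22 (adjusted p = 0.145); het and WT libraries did not overlap in either compartment. In the authors' deposited tables Cacng4 was lower in het with a false discovery rate of 8.01e-06 in neurites and 1.02e-06 in soma. A Cacnb1 transcript was higher in het soma there (log2 fold change 0.366, false discovery rate 0.0276). In neurites it had 0.401 and a false discovery rate of 0.288. Cacng7 was lower in neurites (-0.41 ± 0.12, adjusted p = 0.0342 by edgeR), with 48.2 ± 3.31 CPM in het neurites and 62 ± 4.72 CPM in het soma, and 37.9 ± 11.6 CPM in WT neurites and 51.8 ± 5.48 CPM in WT soma (SD, n = 3 each). The medians of the satellite glia genes, given above, had the same signs as Cacng4 in these comparisons, and the part of those cells in it was not tested.

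Of 29 genes of channel partners, such as release proteins and ubiquitin ligases, 26 were tested. In neurites against soma their median log2 fold change was -0.12. In het against WT 0 passed in neurites or soma (medians 0.14 and 0.15), where 3.27% and 0.00% of all genes were called. The smallest p in neurites belonged to the release protein gene Snap25, with 0.46 ± 0.14 (adjusted p = 0.093 by edgeR), and to Rimbp2, whose protein tethers calcium channels at release sites, with 0.43 ± 0.14 (adjusted p = 0.103 by edgeR).

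Of 33 other calcium handling genes, 28 were tested, and in neurites against soma 2 rose and 5 fell (median -0.22), where 7.33% of all genes rose and 4.87% fell. Micu2, a gatekeeper of the mitochondrial calcium uniporter, rose by 0.51 ± 0.07 (adjusted p = 0.000516 by edgeR), with 95.2 ± 4.87 CPM in het neurites and 69.5 ± 1.49 CPM in het soma, and 110.0 ± 13 CPM in WT neurites and 74.1 ± 4.39 CPM in WT soma (SD, n = 3 each). It was also called in het alone and in WT alone. Among those that fell were Atp2b2, a plasma membrane calcium pump, at -0.69 ± 0.15 (adjusted p = 0.00775 by edgeR), Nalcn, a sodium leak channel related to the alpha1 subunits, at -0.44 ± 0.09 (adjusted p = 0.00834), and Unc80, which encodes a part of the Nalcn complex, at -0.46 ± 0.11 (adjusted p = 0.0141). In het against WT 1 passed in neurites and 0 in soma, where 3.27% and 0.00% of all genes were called. Itpr3, an intracellular calcium release channel, fell in het neurites (-0.81 ± 0.20, adjusted p = 0.0443 by edgeR), with 266 ± 81.2 CPM in het neurites and 465 ± 90.6 CPM in WT neurites, and had -0.65 ± 0.20 in soma (adjusted p = 0.232). In the authors' deposited tables Itpr3 was lower in het with a false discovery rate of 0.002 in neurites and 2.6e-08 in soma. A transcript of Calb1, of the same list, was higher in het there. It had a log2 fold change of 0.642 in neurites (false discovery rate 0.0142) and 0.560 in soma (false discovery rate 0.0052).

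**Figure D5:**
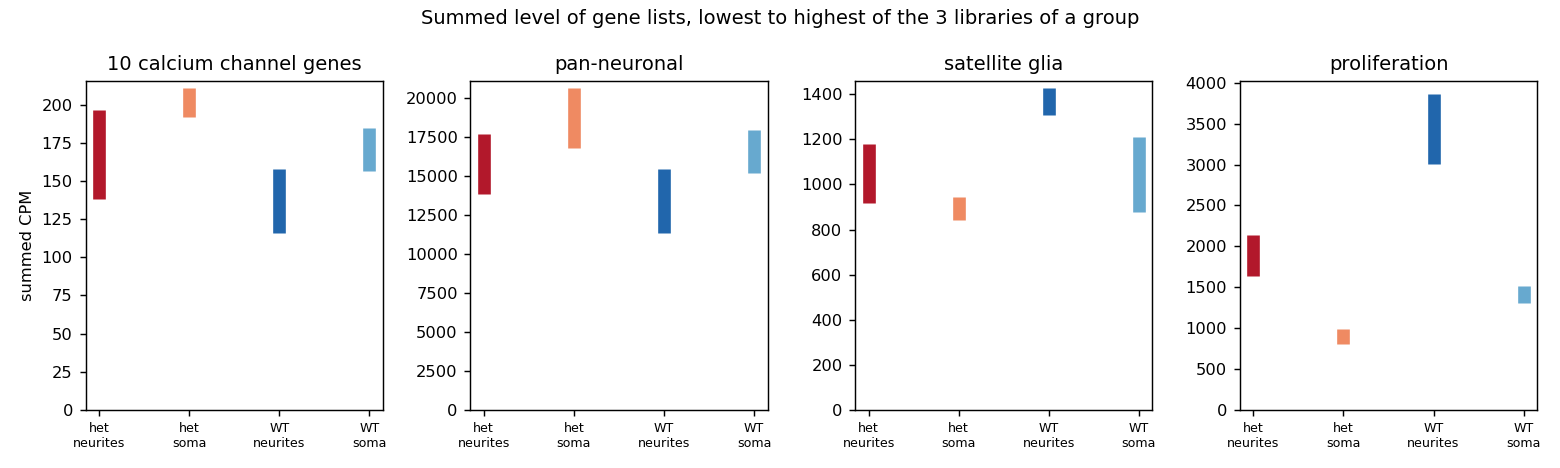
Summed level in CPM (vertical axes, linear, from 0) of the 10 calcium channel genes and of the pan-neuronal, satellite glia and proliferation lists in het neurites, het soma, WT neurites and WT soma (from left to right), each bar running from the lowest to the highest of the 3 libraries. The proliferation sum lies between 1640 and 2140 in het neurites and between 3010 and 3870 in WT neurites.

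The libraries held 14965973 to 32434916 counts. Of the markers of the labelled cell type, all 16 pan-neuronal and 12 nociceptor genes were in both tables. The pan-neuronal sum ran from 13800 to 17700 CPM in het neurites and 16800 to 20600 CPM in het soma. In WT it ran from 11300 to 15400 CPM in neurites and 15200 to 17900 CPM in soma. Markers of other cells were present as well, at 920 to 1180 CPM in het neurites, 843 to 945 CPM in het soma, 1310 to 1430 CPM in WT neurites and 879 to 1210 CPM in WT soma for the satellite glia list and 1720 to 2130, 2110 to 2290, 2220 to 2300 and 2220 to 2430 CPM in the same groups for 11 Schwann cell genes. Of the macrophage list 7 of 11 were in both tables, and its sum ran from 116 to 294 CPM in het neurites, 182 to 387 CPM in het soma, 87.7 to 185 CPM in WT neurites and 142 to 229 CPM in WT soma. The 8 fibroblast genes summed to 1040 to 2140 CPM in het neurites, 848 to 1720 CPM in het soma, 1290 to 4070 CPM in WT neurites and 1450 to 2820 CPM in WT soma. The p-values of the main fit treat all 12 libraries as independent. The cultures are described as independent biological repeats, but neurite and soma libraries of the same number may share a culture.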

How the data were processed

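RNA was measured in the neurite and soma compartments of DRG cultures by sequencing of ribosome-depleted, stranded libraries, per the labels' protocols. The submitters' processing notes name CASAVA 1.8.2, edgeR and the build mm10 (GRCm38). Which aligner and counter were run, and whether counting used strand, is not given in the sources used here. Deposited were raw counts per Ensembl transcript, in 1 table per compartment with 6 libraries each, and every listed transcript had at least 5 counts in 3 or more libraries of its table. The authors' own log2 fold changes (het over WT), p-values and false discovery rates stand in the same tables, per the file headers. The remaining 24 per-sample columns were not used. Transcripts without a gene name held 0.574% to 0.694% of the counts and were left out.

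Counts were summed per gene over the 31420 named transcripts in both tables. Genes (15990) and transcripts (29102) that passed filterByExpr entered the quasi-likelihood test of edgeR 4.0.16 under R 4.3.3 after TMM scaling, with 1 mean per group over all 12 libraries, without a block, and p-values were adjusted by Benjamini-Hochberg over all of them, with a threshold of 0.05. The SE is the log2 fold change divided by the square root of the F statistic. The common biological coefficient of variation was 0.163. The compartments were deposited as separate tables of raw counts, so scaling was computed over both together. Likeness used log2(CPM + 0.5). Alternatives were RLE scaling, no filter, DESeq2 1.42.0, replicate blocks, 6 libraries alone, all transcripts of 1 table and each library left out. Chosen after seeing the data were a fit in which the members kept only their protein-coding transcripts, and own bases as length. The fit was tested on simulated data. Own bases were computed from GENCODE M21 over transcripts with an identifier up to the highest in the tables, and 97.61% of the tables' identifiers were found there. The members and lists were chosen with earlier results of these data known. All 10 members are named. Of the other lists, genes that passed are named, at most 4 by smallest p, otherwise at most 2. Calb1 and Cacnb1 are named in addition, from the authors' deposited tables. The result of 1 gene of the partner list is not reported here.

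Same-numbered libraries deviated together in WT neurites and soma (r = 0.278, 0.341 and 0.23) and in het and WT soma (0.222, 0.273 and 0.159). The numbers were taken to pair these groups, which the labels do not state. In het neurites and soma (0.205, 0.256 and 0.0504) and het and WT neurites (0.142, 0.224 and -0.0373) they were not taken as paired. In het neurites and soma the same-number values still lay above all other-number values, of which the highest was 0.00797. The main p-values come from the edgeR fit without a block.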

Additional observations from a re-analysis of the deposited data

How the results depend on the processing

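Fitted with a replicate block, 4 members were called in neurites against soma over both genotypes when the block was genotype and number together (Cacna1b, Cacna1e, Cacna2d2 and Cacna2d3) and 3 when it was the number (Cacna1b, Cacna2d2 and Cacna2d3), and the block by number called 1 member transcript. The first block assumes that libraries of 1 genotype and number come from the same culture, which the labels do not say. In the comparisons taken as paired (WT compartments, het and WT soma) the block changed no member's call. With 1 library left out, 0 to 2 members and 0 to 2 member transcripts were called. For members whose sign turned when a library was left out, the log2 fold changes ran as follows. In neurites against soma Cacna1h ran from -0.08 to 0.19 over both genotypes and from -0.43 to 0.11 in WT, Cacna2d1 from -0.19 to 0.20 in WT, Cacna1a from -0.35 to 0.06 in het and Cacna1c from -0.31 to 0.09 in het. In het against WT neurites Cacna1a ran from -0.06 to 0.35, Cacna1b from -0.11 to 0.40 and Cacna1d from -1.17 to 0.27. In het against WT soma Cacna1b ran from -0.01 to 0.17, Cacna1d from -0.55 to 0.31, Cacna2d1 from -0.12 to 0.29 and Cacna2d2 from -0.01 to 0.43. For the interaction Cacna1a ran from -0.19 to 0.22, Cacna1b from -0.17 to 0.33, Cacna1d from -1.07 to 0.36, Cacna1e from -0.09 to 0.30, Cacna2d3 from -0.11 to 0.20 and Cacnb3 from -0.27 to 0.08. Shares ran from -0.093 to 0.0256 points for Cacna1d, from -1.42 to 1.54 for Cacna1e, from -0.0499 to 0.659 for Cacna2d1 and from -0.353 to 0.346 for Cacna2d3. Signs also turned for Cacna2d2 in het against WT soma with all transcripts of the soma table (-0.01), for the interaction of Cacna1a with the block by genotype and number (-0.02) or number (-0.03), and for the shares of Cacna1e (-4.76 points by longest transcript, -0.419 by own bases) and Cacna2d3 (0.033 and 4.54). The cause was not tested. None of these log2 fold changes or shares passed the threshold (smallest exact permutation p 0.045, adjusted p = 0.135, for Cacna2d3 by own bases). Over all genes, edgeR called 1950 in neurites against soma (3066 and 3183 with the blocks, 1093 to 2746 with 1 library left out), 495 in WT (1112 by DESeq2, 40 from the 6 libraries alone, 93 to 1081), 102 in het (480 by DESeq2, 668 with the block by number, 0 to 191) and 523 in het against WT neurites (1191 by DESeq2, 1696 with the block, 0 from the 6 libraries alone, 0 to 1767). In het against WT soma edgeR called 0 genes (318 by DESeq2, 520 with the block, 388 from the 6 libraries alone, 0 to 64). Cacna2d2 and Cacna1d, at 1 to 28 counts, are limited by depth.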
